A study of Homo sapiens with 5 samples.

Results

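The cytosolic ribosomal protein genes were taken from the count table by their symbols, as every row named RPL or RPS followed by a number, with or without a closing A, X or L, together with RPLP0, RPLP1, RPLP2, RPSA, RPL7L1 and RPL22L1. This gave 83 of the 28278 genes in the table, 51 of the large subunit and 32 of the small subunit. The libraries were made from HEK293T, an established human embryonic kidney cell line, and fall into 2 groups. The ascorbic acid group has 2 libraries of cells given ascorbic acid (vitamin C), a cofactor of iron-dependent dioxygenases, and the control group has 3 libraries of untreated cells of the same line. The labels describe seeding for 24 h followed by ascorbic acid for 24 h for a DNA methylation test or 36 h for an RNA methylation test, with medium changes every 6 h, and do not say which time applies to these RNA libraries. The dose is not given in the sources used here, and only the ascorbic acid cells are described as having had the medium changes. The labels do not state whether libraries of a group came from separate cultures. The p-values therefore measure how these libraries vary, and that variation may be technical.

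Each ribosome holds a copy of nearly every ribosomal protein, and the proteins of the large and the small subunit are made in matched amounts. In human cells their messenger RNAs are among the most abundant, and they begin with a run of pyrimidines, the terminal oligopyrimidine (TOP) motif, through which mTORC1 and LARP1 set their translation and stability. Some members have a paralog, a second gene for a closely related protein, that is used in particular tissues or at a lower level.

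Start sequences are shown because the TOP run is a feature for which ribosomal protein messages are known. RefSeq start positions (GRCh38.p14) were matched by symbol for 66 of the 83 genes. In each, the 30 bases from 10 before the annotated start to 20 from it onward were read, and the capitals mark the longest unbroken run of C and T. The first 4 sequences belong to genes that differed between the groups, RPL39 was the large subunit gene with the highest level per length, and RPS27L and RPS29 are examples with a short run in the window. The RPS29 run reaches the last base of the window, so its full length was not read. The windows lie at chr3:197950180-197950209 (plus strand) for RPL35A, chr13:27251548-27251577 (plus) for RPL21, chr12:56116623-56116652 (plus) for RPL41, chr5:150449720-150449749 (minus) for RPS14, chrX:119791611-119791640 (minus) for RPL39, chr15:63157458-63157487 (minus) for RPS27L and chr14:49598691-49598720 (minus) for RPS29.
RPL35A: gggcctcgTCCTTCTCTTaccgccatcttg
RPL21: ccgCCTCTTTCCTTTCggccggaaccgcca
RPL41: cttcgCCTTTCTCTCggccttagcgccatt
RPS14: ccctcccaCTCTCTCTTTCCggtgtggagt
RPL39: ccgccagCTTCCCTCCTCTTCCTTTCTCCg
RPS27L: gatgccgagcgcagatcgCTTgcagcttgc
RPS29: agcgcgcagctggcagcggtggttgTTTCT

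A run of at least 7 pyrimidines stood in this window in 52 of 66 ribosomal protein genes (78.8%), in 73.2% of the 41 large subunit genes and in 88% of the 25 small subunit genes matched. Among the promoters of the tested genes the share was 18.7% of 11516, and among all 27305 promoters listed it was 19.1%. Over the 300 bases around the start and on both strands, CCGGAAG, the core of an ETS factor site, was found in 34.8% of the ribosomal protein genes and 18.2% of tested genes. TATAAA was found in 10.6% of the ribosomal protein genes and 5.89% of tested genes, AAGATGGC, part of a YY1 site, in 10.6% and 5.08%, and GGGCGG, a GC box, in 54.5% and 69.3%. Among all promoters listed the shares were 10.7% for CCGGAAG, 12% for TATAAA, 3.03% for AAGATGGC and 44.6% for GGGCGG, so for TATAAA and GGGCGG the direction of the difference turned with the promoters chosen for comparison. These are matches of letters in a window and no measure of binding. The 52 genes with a run of at least 7 had a median log2 fold change of -0.05 with ascorbic acid, and the 13 tested genes with a shorter run had -0.05.

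Total counts were 41739602 to 48015766 in the ascorbic acid libraries and 35106664 to 57212071 in the control libraries, and 71.3 to 75.9% of the small counts (1 to 10) were even numbers, as when both ends of each fragment are counted, so counting error may be larger than the counts imply. Of 6 genes that mark HEK293 cells, 5 reached 1 CPM (counts relative to the TMM-scaled total of the library) in every library. The summed level of these 6 was 953 to 1002 CPM in the ascorbic acid libraries and 883 to 918 CPM in the controls. Most of each sum was VIM, with 915 and 872 CPM with ascorbic acid and 806 to 841 CPM in controls. The marker under 1 CPM was PAX2, at 0.58 to 0.66 CPM. The 5 fibroblast, 3 keratinocyte and 3 hepatocyte markers each summed to at most 0.351 CPM in any library, and of the haematopoietic markers PTPRC, CD3E and HBB had 0 to 2 counts in every library.

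Ribosomal protein genes took between 9.19 and 9.81% of the counts of every library. They held 9.74% and 9.19% of all counts in the ascorbic acid libraries, against 9.39%, 9.45% and 9.81% in the control libraries. The large subunit genes held 5.84% and 5.53% with ascorbic acid, against 5.58%, 5.65% and 5.87% in controls. The small subunit genes held 3.90% and 3.66% with ascorbic acid, against 3.81%, 3.80% and 3.95% in controls. The 95% Wilson interval of these shares was widest for control 3 (9.80 to 9.82% for all members) and covers counting error only, and for all members together the intervals of libraries of the same group did not overlap. The mean share was 9.46 ± 0.383% with ascorbic acid (SD, n = 2) and 9.55 ± 0.227% in controls (SD, n = 3), a difference smaller than the spread of either group. Such shares show neither the number of cells nor the amount of RNA per cell.

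With ascorbic acid, 2 of the 50 large subunit genes tested rose and 3 fell, while 45 did not pass, and of 32 small subunit genes 1 fell and 31 did not pass (edgeR's quasi-likelihood test, Benjamini-Hochberg adjusted p under 0.05 over 15271 genes, two-sided). In the small subunit 0 genes rose in edgeR, DESeq2 and limma-voom, with 6 genes at an unadjusted p under 0.05 in edgeR, and DESeq2 and limma-voom each called 3 lower. The share called in edgeR was 7.32% of the ribosomal protein genes tested, and 14.3% of all genes tested (8.53% higher and 5.76% lower). In the large subunit DESeq2 called 7 (1 higher, 6 lower) and limma-voom 6 (2 higher, 4 lower). DESeq2 thus called 14.3% of large and 9.38% of small subunit genes, against 12.5% of all genes. The limma-voom shares were 12% and 9.38%, against 14.8%. The large subunit had a median log2 fold change of -0.05 and the small subunit one of -0.06, where all tested genes had 0.00, and these medians were 0.04 and 0.03 when a trend with expression level was removed by cyclic loess. Among other genes at 200 CPM or more, 839 in number, the median was -0.08 and 24.6% were called, 2.74% higher and 21.8% lower. The fold change lay below 0 on the log2 scale in 62 of 82 ribosomal protein genes. It did so in 689 of the 839 other genes at 200 CPM or more and in 7517 of all 15271 genes tested.

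For these 5 libraries and under TMM scaling, the tests bounded most changes narrowly. The intervals do not cover the choice of scaling. If libraries of a group came from the same culture, they do not cover variation between cultures either. The 95% interval of the fold change lay within 1.2-fold in either direction in 72 of 82 genes (44 of 50 large, 28 of 32 small) and within 1.5-fold in 78. It reached past 1.2-fold in RPL17, RPL36A, RPL38, RPL39L, RPL3L, RPL41, RPS10, RPS21, RPS27 and RPS29. Of these RPL36A and RPL3L had few counts, and RPS29 (log2 interval -0.55 to 0.86) and RPS21 (-0.48 to 0.59) had a wide spread between libraries. At an unadjusted p under 0.05 in edgeR there were 18 of 82 genes, 12 large and 6 small. The same threshold was passed by 4276 of all 15271 genes tested and by 384 of 839 other genes at 200 CPM or more. Tested against a fold of 1.2 (edgeR's glmTreat), 0 of 82 passed, with 0 at an unadjusted p under 0.05.

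**Figure D1:**
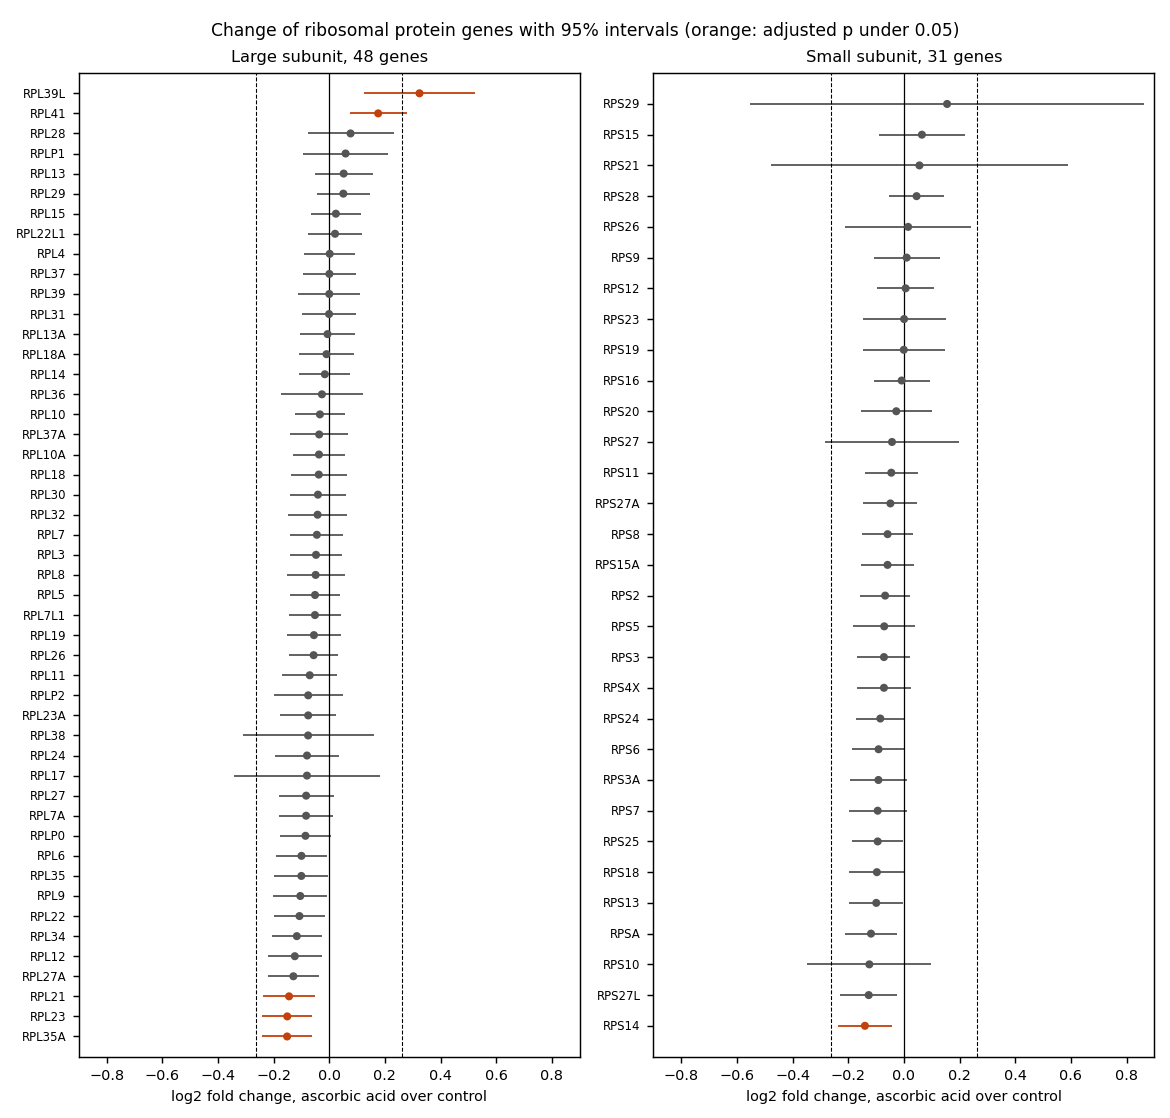
Log2 fold change of ascorbic acid over control with its 95% interval for 79 of the 80 ribosomal protein genes at 5 CPM or more, 48 of the large and 31 of the small subunit, with the 6 called genes in orange and dashed lines at a fold of 1.2. Most points sit slightly left of 0, RPL39L and RPL41 stand at the right, and RPS29 and RPS21 carry the widest intervals.

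RPL39L, a paralog of RPL39 that encodes a protein of the exit tunnel and is best known from male germ cells, had the largest increase of the called genes. Its level was 16.1 and 15.9 CPM in the ascorbic acid libraries, against 10.8, 13.5 and 14.4 CPM in the control libraries. Both ascorbic acid libraries were above all controls, and control 1 was the lowest. The mean was 16.0 ± 0.171 CPM with ascorbic acid (SD, n = 2) and 12.9 ± 1.86 CPM in controls (SD, n = 3), a 1.25-fold difference (log2 0.32 ± 0.10 SE, edgeR adjusted p = 0.0253). The call ended without control 1 (0.21, adjusted p = 0.188), without ascorbic acid 1 (0.31, 0.11) and without ascorbic acid 2 (0.33, 0.0888), and with DESeq2 (0.31, 0.0817). RPL39L lies at chromosome 3, 187120948 to 187180908 on the minus strand (GENCODE 29, GRCh38), and shares no exon with another gene.

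RPL41, which encodes the smallest ribosomal protein and sits at the subunit interface, was the other gene that rose. It had 770.3 and 739 CPM with ascorbic acid, against 728, 641 and 635 CPM in controls. The lowest ascorbic acid library, ascorbic acid 2, stood just above control 1, and the groups had no overlap. The log2 fold change was 0.18 ± 0.05 SE (1.13-fold, edgeR adjusted p = 0.0175). The call ended without control 2 (0.15, 0.0769), without control 3 (0.14, 0.0836) and without ascorbic acid 1 (0.14, 0.145). It held under cyclic loess and without ascorbic acid 2, where the other 5 calls ended. RPL41 lies at chromosome 12, 56116586 to 56117943.

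RPL35A, RPL23 and RPL21, all of the large subunit, fell by small amounts. RPL35A, a Diamond-Blackfan anaemia gene (chromosome 3, 197949980 to 197956610), had 586 and 572 CPM with ascorbic acid, against 622, 646 and 662 CPM in controls. RPL23, a protein that can bind MDM2 (chromosome 17, 38847865 to 38853843), had 1156 and 1103 CPM with ascorbic acid, against 1226, 1262 and 1275 CPM in controls. RPL21 (chromosome 13, 27251309 to 27256691) had 939.7 and 869 CPM with ascorbic acid, against 1005, 1011 and 982 CPM in controls. In all 3 genes both ascorbic acid libraries were below every control, ascorbic acid 2 lowest. The log2 fold changes were -0.15 ± 0.04 SE for RPL35A (edgeR adjusted p = 0.0202), -0.15 ± 0.04 for RPL23 (0.0203) and -0.14 ± 0.05 for RPL21 (0.0303).

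These 3 calls ended without ascorbic acid 2, with -0.14 for RPL35A (adjusted p = 0.0702), -0.12 for RPL23 (0.112) and -0.10 for RPL21 (0.232). They also ended without control 2, with log2 changes of -0.15, -0.14 and -0.13 in the same order, and those of RPL35A and RPL23 without control 3 (-0.13 and -0.14). The RPL21 call ended without control 1 (-0.13), with upper-quartile factors (-0.13, adjusted p = 0.0626) and with the filter of 5 CPM in 2 libraries (-0.12, 0.0654). Scaled by library totals, the values were -0.11, -0.11 and -0.10, and with cyclic loess -0.08, -0.06 and -0.06, none of them called. RPL21 has 66 pseudogenes in GENCODE 29 and RPL35A 17, so reads that match a copy make these counts uncertain.

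RPS14, which helps to mature the small subunit rRNA and is deleted in 5q- syndrome, was the small subunit gene that fell. It had 1349 and 1211 CPM with ascorbic acid, against 1403, 1402 and 1427 CPM in controls. The controls lay close together, and the 2 ascorbic acid libraries were further apart than ascorbic acid 1 was from the nearest control. The log2 fold change was -0.14 ± 0.05 SE (0.907-fold, edgeR adjusted p = 0.0419). The call ended whenever any library other than ascorbic acid 1 was left out, with the smallest change without ascorbic acid 2 (-0.07, adjusted p = 0.397). It also ended under cyclic loess (-0.05), under scaling by upper quartiles (-0.12) or by library totals (-0.10), and with at least 5 CPM required in 2 libraries (-0.12). RPS14 lies at chromosome 5, 150442635 to 150449756.

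Just outside the threshold stood RPL27A, whose protein is hydroxylated on a histidine by the oxygenase RIOX2. It had 1212 and 1144 CPM with ascorbic acid, against 1321, 1260 and 1284 CPM in controls. Both ascorbic acid libraries were below every control, with a log2 fold change of -0.13 ± 0.04 SE (edgeR adjusted p = 0.0505). RPL27A passed in 8 of 21 alternatives.

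**Figure D2:**
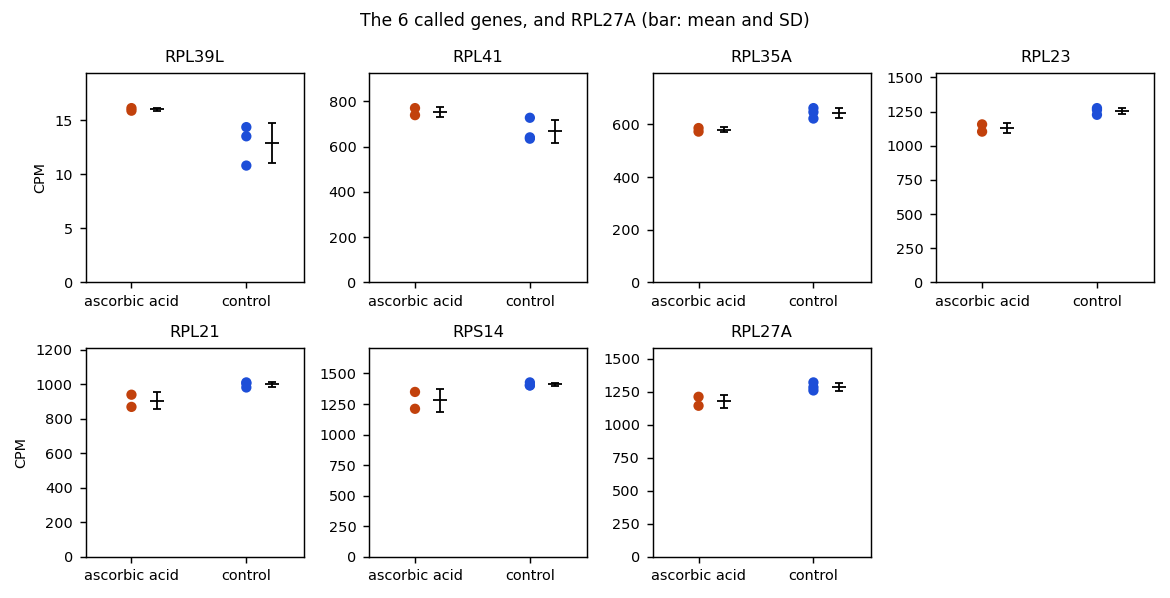
CPM in each library of the 6 called genes and of RPL27A, with ascorbic acid (2 libraries) left of control (3 libraries), axes from 0, and the mean with SD beside the points. In all 7 genes the points of the groups do not overlap, and the differences are small beside the level, apart from RPL39L at 16.0 and 12.9 CPM.

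In 22 of 82 genes (26.8%) the groups had no overlap, 2 higher and 20 lower with ascorbic acid, against 43.1% of all genes tested. Among the 80 genes at 5 CPM or more, ascorbic acid 2 was below every control in 53, inside the controls' range in 25 and above it in 2. Ascorbic acid 1 was below every control in 20, inside in 44 and above in 16. Of the 10585 tested genes at that level, ascorbic acid 2 was below every control in 4187, inside in 3192 and above in 3206, and ascorbic acid 1 was below in 4186, inside in 3328 and above in 3071.

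Ribosomal protein genes moved together between libraries of the same group. Ascorbic acid 1 was higher than ascorbic acid 2 in 77 of 80 genes, in 45 of 48 of the large and 32 of 32 of the small subunit, with a median difference of 0.11 in log2 CPM. Control 3 was higher than control 1 in 62 of 80, with a median difference of 0.09, and the medians were 0.06 for control 3 over control 2 and 0.03 for control 2 over control 1. Over 10585 tested genes at the same level the medians were 0.01 for the ascorbic acid libraries and -0.01 for control 3 over control 1. Of these 4 differences between replicate libraries, that of control 2 over control 1 was smaller in size than the median log2 fold change of -0.05 between the groups, and the other 3 were larger. Measured as the deviation from each gene's mean over the 5 libraries, the median large subunit gene was at 0.02 and -0.07 in the ascorbic acid libraries, against -0.01, 0.00 and 0.07 in controls. The median small subunit gene was at 0.02 and -0.09 with ascorbic acid, against -0.01, 0.00 and 0.08 in controls. Other genes at 5 CPM or more with transcripts of up to 600 nucleotides were at 0.00 and -0.03, against -0.02, 0.00 and 0.03. Those of over 600 to 1000 nucleotides were at 0.01 and -0.03, against -0.01, -0.01 and 0.04. Longer ones were at -0.01 and -0.01, against 0.01, 0.01 and 0.01.

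**Figure D3:**
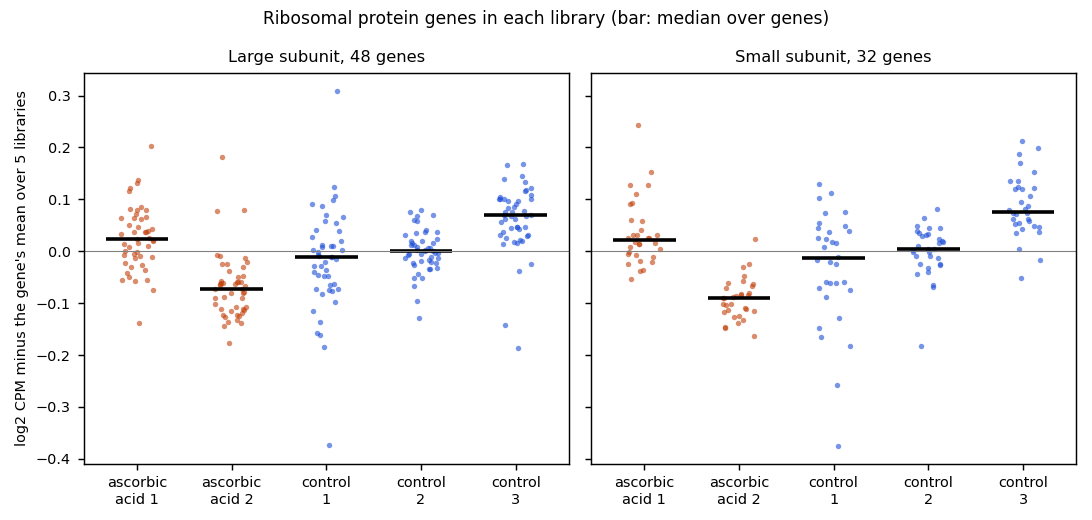
Deviation of log2 CPM from the gene's mean over the 5 libraries, for 48 large and 32 small subunit genes at 5 CPM or more, by library, with ascorbic acid in orange, control in blue and bars at medians. The bars of ascorbic acid 2 (-0.07 and -0.09) and control 3 (0.07 and 0.08) lie farthest from 0, on opposite sides, and the genes of each library scatter around its bar.

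Leaving out libraries moved the counts with them. Without ascorbic acid 1, 9 large and 5 small subunit genes were called, all lower, at medians of -0.09 and -0.12. These were 18% and 15.6% of the genes tested, where 9.45% of 15618 genes were called in the same fit, 790 higher and 686 lower. The calls gained included RPL7A, RPL9, RPL12, RPL27A, RPL35, RPLP2, RPS13, RPS18 and RPSA, and those of RPL39L and RPL41 were lost. Without ascorbic acid 2, only RPL41 was called, at medians of -0.0048 and -0.0153, where 9.79% of all genes were called. In these fits the remaining ascorbic acid library was assumed to vary like the controls.

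The genes with the shortest transcripts differed most between controls. The median SD of log2 CPM among controls was 0.087 for 21 genes of up to 600 nucleotides, 0.060 for 36 genes of over 600 to 1000, and 0.048 for 23 longer genes, where other genes at that level had 0.074, 0.071 and 0.056. RPS29, a zinc-binding small subunit protein with a transcript of 296 nucleotides, had 223 and 183 CPM with ascorbic acid, against 146, 185 and 219 CPM in controls. RPS21 (344 nucleotides) had 209 and 178 CPM with ascorbic acid, against 157, 186 and 216 CPM in controls. In both genes control 1 was the lowest of all libraries and ascorbic acid 2 lay inside the controls' range, and neither passed (edgeR adjusted p = 0.742 and 0.883). RPS27 (359 nucleotides), with 756 and 717 CPM with ascorbic acid, against 658, 768 and 851 CPM in controls, had the same order among controls. Across the 80 genes, the difference of control 3 over control 1 had a Spearman correlation of -0.37 with transcript length, and that of ascorbic acid 1 over ascorbic acid 2 one of -0.23. Over the 10585 tested genes the same correlations were -0.13 and -0.22. For ascorbic acid 1 over ascorbic acid 2 the correlation was -0.06 in the large and -0.44 in the small subunit. These are descriptions across genes that share the libraries, and whether RNA fragment size or library preparation played a part was not tested.

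**Figure D4:**
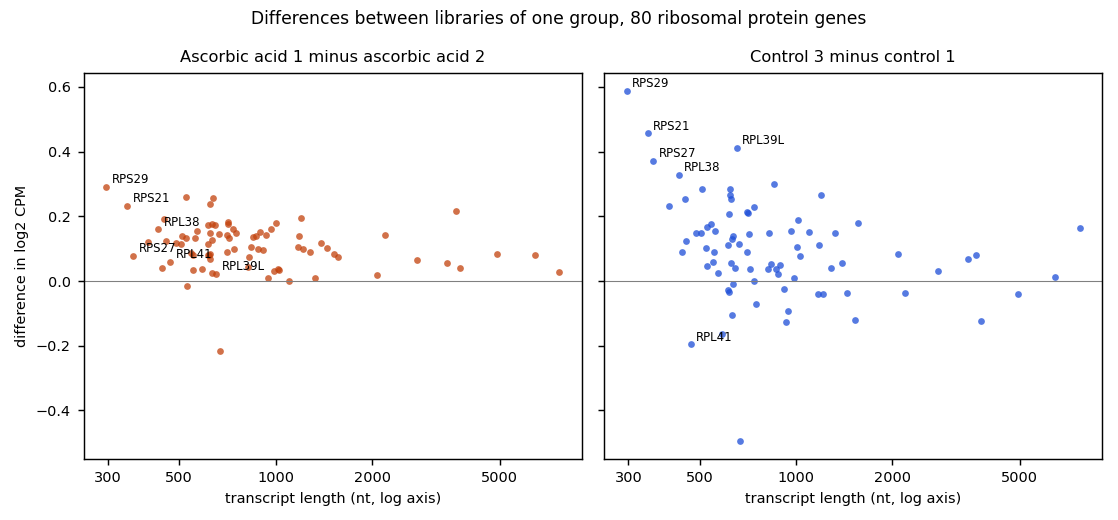
Difference in log2 CPM between libraries of the same group against transcript length (log axis) for 80 ribosomal protein genes, as ascorbic acid 1 minus ascorbic acid 2 at the left and control 3 minus control 1 at the right. Nearly all points at the left lie above 0 (77 of 80). At the right the shortest transcripts, RPS29 and RPS21, lie highest, followed by RPL39L (653 nucleotides) and then RPS27, while RPL41 lies below 0.

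Levels between genes were compared as CPM per kb of transcript. In the large subunit the highest were RPL39 at 3615 ± 216 CPM per kb with ascorbic acid and 3615 ± 298 in controls (SD, n = 2 and 3), and RPL15 at 2751 ± 60.3 with ascorbic acid and 2706 ± 65.4 in controls. RPL7A followed with 2591 ± 192 CPM per kb with ascorbic acid and 2745 ± 59.6 in controls, and RPL29, which mice can live without, with 2610 ± 104 with ascorbic acid and 2520 ± 123 in controls. In the small subunit RPS2 was among the highest, with 3559 ± 55.8 CPM per kb with ascorbic acid and 3729 ± 79.6 in controls. RPS18 had 2777 ± 233 CPM per kb with ascorbic acid and 2970 ± 77.5 in controls, and RPSA, also known as the laminin receptor precursor, 2638 ± 138 with ascorbic acid and 2864 ± 49.7 in controls. None of these 7 genes passed the test. Neighbours in this order, such as RPL15 and RPL7A, did not differ beyond their spread. The order rests on the transcript chosen, and RPL37, RPL27A, RPL7L1, RPL37A, RPS23 and RPS27L stand low in it with annotated transcripts of 3437 to 7686 nucleotides.

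**Figure D5:**
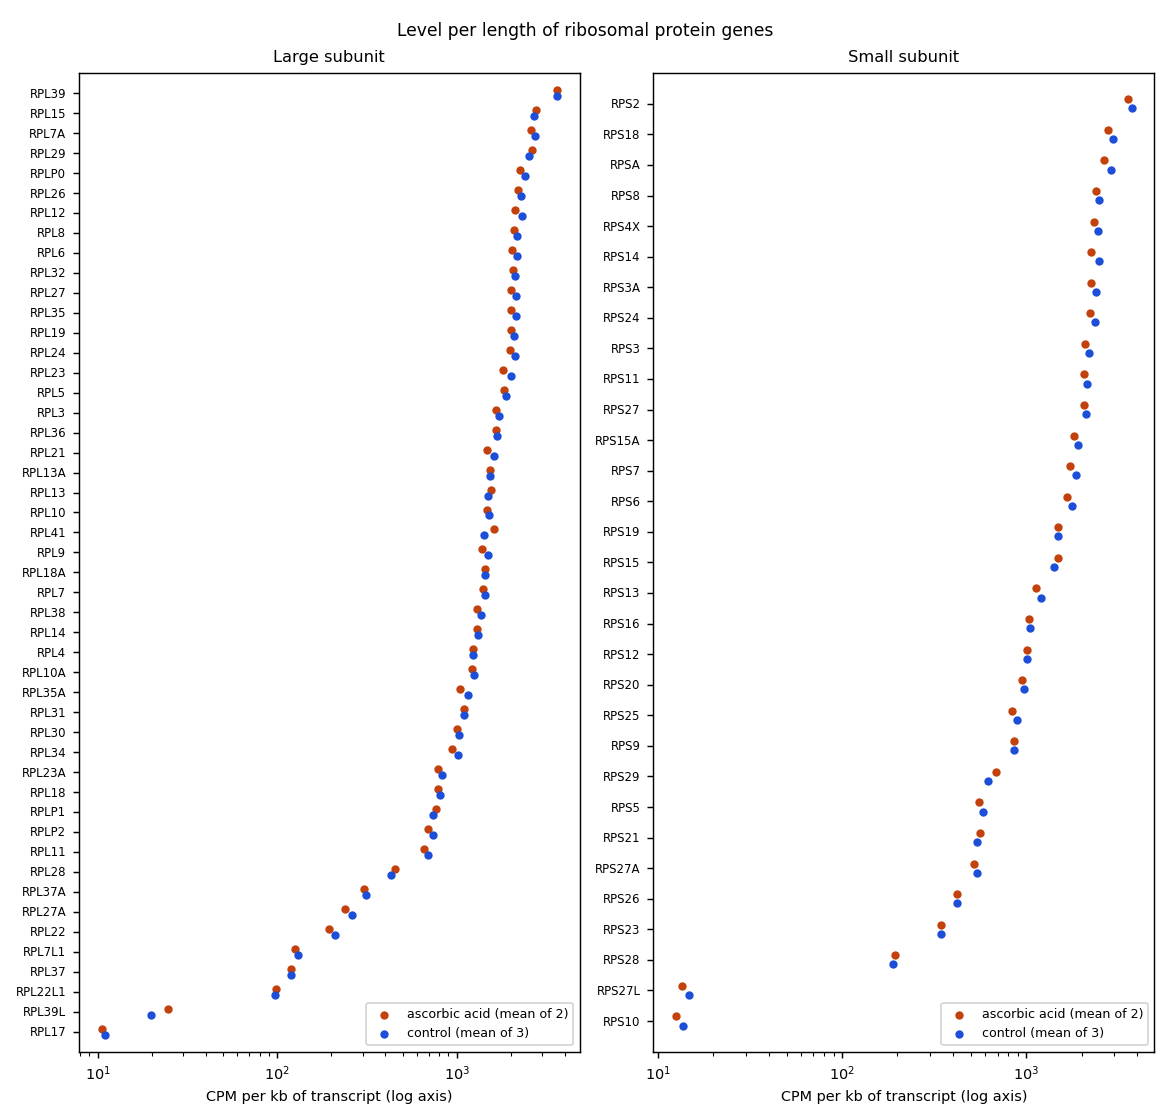
Mean CPM per kb of transcript (log axis) of 79 of the 80 genes at 5 CPM or more, 48 of the large and 31 of the small subunit, ascorbic acid in orange (mean of 2) and control in blue (mean of 3), in order of level. The points of the groups nearly coincide, the highest genes drawn reach 3615 (RPL39) and 3729 (RPS2, control), and RPL39L, RPL17, RPS27L and RPS10 lie lowest.

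The paralogs were set against their parent genes as a percentage of the parent's level per kb of coding sequence. CPM of the whole gene was divided by coding length alone, and the rest of the transcript was left out of the length. Per kb of transcript, RPS27L had 13.87 and RPS27 2106 CPM per kb in ascorbic acid 1, and RPL7L1 had 127.9 and RPL7 1398. The percentages therefore depend on the length used, while the order of the libraries within a pair does not. RPL39L stood at 1.07% and 1.15% of RPL39 with ascorbic acid, against 0.822%, 0.911% and 0.930% in controls, so that the groups did not overlap. RPL22L1, which can take the place of RPL22, stood at 58.7% and 53.9% of RPL22 with ascorbic acid, against 53.6%, 51.9% and 49.3% in controls. Here too both ascorbic acid libraries were above the controls, the nearer by a narrow margin. RPL22 had 405 and 399.9 CPM with ascorbic acid, against 419 to 444 CPM in controls (log2 -0.11 ± 0.04 SE, edgeR adjusted p = 0.103), and RPL22L1 had 0.02 ± 0.05 (0.816).

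RPS27L, a p53 target in human cells, stood at 11.8% and 11.8% of RPS27 with ascorbic acid, against 14.3%, 12.5% and 11.1% in controls. RPL7L1, a nucleolar relative of RPL7, stood at 30.5% and 29.6% of RPL7 with ascorbic acid, against 33.7%, 29.2% and 27.9% in controls. In both pairs the ascorbic acid libraries lay inside the controls' range. RPS27L itself had groups that did not overlap, with 89.2 and 84.3 CPM with ascorbic acid, against 93.9, 95.6 and 94.8 CPM in controls, and did not pass (log2 -0.13 ± 0.05 SE, edgeR adjusted p = 0.0918). RPL3L, the striated muscle paralog of RPL3, had 0.247 and 0.351 CPM with ascorbic acid, against 0.320, 0.5 and 0.173 CPM in controls, at most 0.0206% of RPL3. RPL10L, the testis paralog of RPL10, had 0 counts in every library. At 3 independent counts a library, this bounds it at 0.0618 and 0.0701 CPM with ascorbic acid, and 0.0533, 0.0789 and 0.0867 CPM in controls. The bound would be higher if both ends of each fragment were counted. It also does not cover reads left out because they match more than 1 gene.

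RPL5 and RPL11, which with the 5S rRNA form a particle that binds the p53 ligase MDM2, did not pass the test. RPL5 had 1896 and 1852 CPM with ascorbic acid, against 1895, 1931 and 1998 CPM in controls (log2 -0.05 ± 0.04 SE, edgeR adjusted p = 0.483). RPL11 had 677 and 660.1 CPM with ascorbic acid, against 649, 717 and 740.1 CPM in controls (-0.07 ± 0.05, 0.364). The groups overlapped in both. MDM2 itself rose, with 267 and 272 CPM with ascorbic acid, against 249, 253 and 232 CPM in controls (0.14 ± 0.05, 0.0403). That call ended without any of ascorbic acid 1, ascorbic acid 2, control 1 or control 3 (0.10 to 0.16, adjusted p = 0.0576 to 0.196). DESeq2 did not call it either (0.13, 0.0522).

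Some ribosomal proteins are themselves hydroxylated by oxygenases that use iron and 2-oxoglutarate, the enzyme family served by ascorbic acid. RPL8, a substrate of RIOX1, had 2125 and 1900 CPM with ascorbic acid, against 2000, 2019 and 2227 CPM in controls, and RPS23, a substrate of OGFOD1, had 1204 and 1159 CPM with ascorbic acid, against 1223, 1038 and 1282 CPM in controls. The groups overlapped in both, with log2 fold changes of -0.05 ± 0.05 SE for RPL8 and 0.00 ± 0.07 for RPS23 (edgeR adjusted p = 0.579 and 0.997). Of 6 tested enzymes that hydroxylate or methylate ribosomal proteins 0 passed in edgeR, DESeq2 or limma-voom, with 2 at an unadjusted p under 0.05 in edgeR. OGFOD1 had -0.10 ± 0.05 (adjusted p = 0.195) and PRMT3, the arginine methyltransferase of RPS2, had 0.08 ± 0.05 (0.318).

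A group of members had far lower counts than the rest. RPL17 had 6.51 and 7.58 CPM with ascorbic acid, against 8.88, 6.84 and 6.30 CPM in controls. RPS10 had 7.50 and 7.32 CPM with ascorbic acid, against 8.42, 8.24 and 7.51 CPM in controls. RPL36A had 1.51 and 1.31 CPM with ascorbic acid, against 0.853, 1.26 and 1.44 CPM in controls. All 3 genes share exons on their own strand with an annotated read-through gene, RPL17-C18orf32 over 24.8% of the exon length of RPL17, RPS10-NUDT3 over 39.4% of RPS10 and RPL36A-HNRNPH2 over 8.4% of RPL36A. The rows of these read-through genes held 0 counts, or 0 to 3 counts for RPS10-NUDT3. Whether reads in shared exons were left uncounted was not tested, so the levels of these 3 genes are uncertain.

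Of 5 further ribosomal protein genes whose symbols fall outside the rule, 0 were called in edgeR, DESeq2 or limma-voom, with 2 at an unadjusted p under 0.05 in edgeR. RACK1, a scaffold on the small subunit, had a log2 fold change of -0.07 ± 0.05 SE (adjusted p = 0.349). Among 36 initiation factors tested, 4 fell, 0 rose and 32 did not pass, at a median of -0.09. In edgeR 16 had an unadjusted p under 0.05, against 4276 of 15271 genes tested and 384 of 839 other genes at 200 CPM or more. The share called was 11.1%, all lower, against 5.76% lower among all genes tested and 21.8% lower among other genes at 200 CPM or more. In either direction, 14.3% and 24.6% of those genes were called. DESeq2 called 9 lower and limma-voom 6, and 0 rose in either. The factors that fell were EIF2S1, the alpha subunit of eIF2 (-0.22 ± 0.05, adjusted p = 0.00261), the subunit-joining factor EIF5B (-0.16 ± 0.05, 0.0133), and the eIF3 subunits EIF3H (-0.14 ± 0.04, 0.0275) and EIF3B (-0.14 ± 0.05, 0.0319), the last chosen after its value was seen. EIF2S1 had 156 and 157 CPM with ascorbic acid, against 191, 181 and 174 CPM in controls, and its call held in all alternatives but the test against a fold of 1.2.

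Of 12 elongation and termination factors 1 fell and 0 rose in edgeR, DESeq2 and limma-voom, with 5 at an unadjusted p under 0.05 in edgeR. It was EEF1B2 in edgeR, a subunit of the exchange factor of eEF1A (-0.14 ± 0.05 SE, edgeR adjusted p = 0.0408), at a median of -0.08, and made 8.33% of the list. Among 20 other genes with TOP messages 4 fell and 0 rose, with 7 at an unadjusted p under 0.05 and 6 and 5 lower in DESeq2 and limma-voom, at a median of -0.07, the nascent chain proteins NACA (-0.16 ± 0.04, 0.0104) and BTF3 (-0.14 ± 0.04, 0.0393) with EIF3H and EEF1B2, which both lists hold. These 4 were 20% of the list, against 5.76% lower among all genes tested and 21.8% lower among other genes at 200 CPM or more. NACA had 864 and 875 CPM with ascorbic acid, against 959, 981 and 980.5 CPM in controls. The EEF1B2 call ended without ascorbic acid 2, control 1 or control 3, and that of NACA without control 2 (-0.15, 0.0639). The BTF3 call ended without ascorbic acid 2 or any control, the EIF3H call without ascorbic acid 1, control 1 or control 2, and the EIF5B call without ascorbic acid 2 or control 1. With cyclic loess all but EIF2S1 of these named calls ended, EIF3B not having been followed.

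Of 12 chaperones and surveillance factors of ribosomal proteins 1 rose, MDM2, 1 fell, BCCIP, a chaperone of RPL23, and 10 did not pass. The called genes made 16.7% of the list, against 14.3% of all genes tested. BCCIP had 143 and 155 CPM with ascorbic acid, against 170.0, 176 and 171 CPM in controls (log2 -0.21 ± 0.05 SE, edgeR adjusted p = 0.003), and the call ended without ascorbic acid 1 (-0.16, 0.0573). Of 19 tested genes of mTORC1 and MYC, which set TOP translation and ribosomal protein transcription, 0 passed in edgeR, DESeq2 or limma-voom, with 3 at an unadjusted p under 0.05 in edgeR. LARP1 had 0.04 ± 0.04 (adjusted p = 0.559) and CNBP, a binder of TOP messages, -0.04 ± 0.05 (0.591).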

How the data were processed

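Poly(A) RNA libraries of 2 ascorbic acid and 3 control samples were analysed. The deposited table gives whole-number counts per gene symbol. Trimmomatic 0.39, STAR, featureCounts and DESeq2 with hg38 (GRCh38) were used, per the submitters' processing notes. Which annotation and strand setting were used, and how overlapping or multi-mapping reads were handled, is not given in the sources used here. Counts of overlapping genes, antisense partners and genes with near-identical copies are therefore uncertain. Table columns were matched to samples by name ("con" for control, "vc" for vitamin C). No row lacked a name.

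Genes were filtered with filterByExpr, scaled by TMM (factors 0.984 to 1.03) and tested in edgeR 4.0.16 (R 4.3.3) with glmQLFit, a robust prior and glmQLFTest. All 5 libraries entered the fit, with no covariate. P-values were adjusted by Benjamini-Hochberg over the 15271 genes, and an adjusted p under 0.05 was called. Of 83 members 82 were tested (RPL10L was not), and 80 had at least 5 CPM. The biological coefficient of variation was 4.6%. Replicates differed beyond counting noise (chi-square per degree of freedom 3.95 to 7.20) and were kept apart. Positions, exon overlaps and lengths came from GENCODE 29, which held all 83 members. Length is that of the shortest transcript with the principal coding sequence, a definition chosen after lengths were seen. GENCODE names 1145 pseudogenes after 77 of the members. The 31 pseudogene rows of the table held 0.0153 to 0.0179% of counts.

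The members, the gene lists and the tests were chosen with earlier results of these data known. Named genes were the called members, up to 6 in each direction and subunit, the 4 highest per length in each subunit, paralogs and their parents, RPL5, RPL11, RPL8, RPL27A and RPS23, up to 3 called genes or else the 2 highest of each list, members with a library more than 0.3 log2 CPM from its group, and the 2 nearest the threshold on each side. The values of 3 genes that these rules or the marker lists select are not reported here. RPS10 and the genes of the interval and left-out-library counts were named after their values were seen. Alternatives were DESeq2 1.42.0, limma-voom (limma 3.58.1), scaling by DESeq2 size factors, by library totals, by upper quartiles and by TMM without the members, cyclic loess, other filters, the replicate block, no robust prior, a fold of 1.2, halved counts, pseudogene counts added, removal of GC and length trends (mgcv 1.9.3), each library left out, and, chosen after seeing the data, read-through counts added.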

Additional observations from a re-analysis of the deposited data

How the results depend on the processing

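Large subunit calls numbered 5 and small subunit calls 1. The small subunit count was 3 with DESeq2 and with limma-voom, 2 with no filter, and 0 with upper-quartile factors, the filter of 5 CPM in 2 libraries and cyclic loess. Library totals gave 2 large (2 higher, 0 lower) and 0 small, a fold of 1.2 gave 0 and 0, and removal of GC and length trends gave 9 and 2. Cyclic loess gave 5 large subunit genes, all higher (RPL41, RPL4, RPL13, RPL15 and RPL29), and medians of 0.0416 and 0.0275. Leaving out a library gave 1 to 9 large and 0 to 5 small subunit calls, medians from -0.0876 to -0.0048 (large) and -0.118 to -0.0153 (small), and a difference in share from -0.36 to 0.18 percentage points. Fits without a library hold fewer samples. The cause of the other moves was not tested.

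Over all genes the calls were 1303 higher and 879 lower, 1712 and 389 with library totals, 920 and 511 with cyclic loess (1431 in all), 1588 and 1488 with GC and length trends removed, 806 and 906 with DESeq2, 275 and 11 against a fold of 1.2 (286 in all), and 1180 to 2047 with a library left out, 1180 without control 1.

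Correlations of deviations for libraries of the same replicate number were 0.03 and 0.01. The deviations of 2 ascorbic acid libraries from their mean mirror each other, so these are not separate checks. Whether the numbers pair the samples cannot be told from them. The replicate block gave 6 large and 1 small subunit calls and 1880 over all genes. Control 3 has no ascorbic acid library of the same number, so under the block it adds nothing to the fold change. The medians were -0.0159 (large) and -0.0326 (small) under the block, and -0.0151 and -0.0315 without control 3. Under the block the calls of RPL35A and RPS14 were replaced by RPL12, RPL27A and RPSA.

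No named gene that was called changed direction in any alternative. With 2 ascorbic acid libraries and changes of about 0.15 on the log2 scale, calls here sit near what the spread between libraries allows, and counts below 10 CPM (RPL17, RPS10, RPL36A and RPL3L) limit those genes.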

Other observations

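Some translation genes outside the ribosomal proteins had counts at or near 0 in the table, and were named after their values were seen. EIF4A1, the helicase of the cap-binding complex, had 0 counts in every library, and EIF3C, a core subunit of eIF3, had 0.103 and 0 CPM with ascorbic acid, against 0.0710, 0.105 and 0.0289 CPM in controls. The paralog EIF4A2 had 299 and 330.1 CPM with ascorbic acid, against 320.4, 310.2 and 300.5 CPM in controls. RIOX1, the hydroxylase of RPL8, also had 0 counts in every library, as did EIF4EBP3. Whether the counting left these reads out was not tested.

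Among 17 tested rows named as ribosomal protein pseudogenes, 0 rose and 1 fell (5.88%, against 5.76% lower among all genes tested). It was RPL23P8, named after its value was seen, with 26 and 12 counts with ascorbic acid, against 50, 38 and 30 counts in controls (log2 -1.14 ± 0.36 SE, edgeR adjusted p = 0.0327). The call was not followed through the alternatives, and its parent gene RPL23 fell by 0.15 on the log2 scale.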
